A study of Andrographis paniculata with 12 samples.

Results

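Leaf transcripts of Andrographis paniculata, an Acanthaceae herb used in medicine, were compared between a late and an early time of methyl jasmonate (MeJA) treatment. The late group is leaves induced with MeJA for 48 h and the early group is leaves induced for 12 h, which are 36 h apart. Both groups carry the treatment, and leaves taken at 0 and 24 h of the same course are quoted beside them where they help to read a value. The labels give 3 biological replicates per time, leaf as the tissue, and neither the plants' age, nor the dose of MeJA, nor the clock time of sampling. RNA enriched for mRNA was sequenced strand-specifically. The comparison took in the 29399 of 32064 assembled genes whose level reached 1 at 1 or more of the 4 times, and left out 2665. The gene just inside that limit was TR83346|c0_g1, with a highest level of 1 and a log2 difference of 0.58, and the gene just outside it was TR33501|c0_g1, with a highest level of 0.9997 and a log2 difference of -0.13.

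Jasmonates are lipid hormones made from chloroplast fatty acids. The active form, jasmonoyl-isoleucine, is bound by the receptor subunit COI1, which marks JAZ repressors (TIFY proteins) for destruction and so frees MYC transcription factors. In leaves the hormone is known to raise defence proteins and specialised metabolites and to lower growth and photosynthesis genes. In Andrographis the specialised metabolites include labdane-type diterpene lactones such as andrographolide, whose carbon skeleton starts from geranylgeranyl diphosphate in the plastid.

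A level is the authors' mean over the replicates of a time, in a normalised unit that the sources used here do not give, so levels are set against each other between times for the same gene, and a ranking of genes by level is only a ranking of deposited values, which may depend on transcript length. The difference of a gene is log2(level + 1) at 48 h minus log2(level + 1) at 12 h, a scale that understates differences of genes at low levels. With 1 mean per time there is no spread between replicates and no test. A gene was counted as higher or lower where this difference reached 1, which is 2-fold, and "higher" and "lower" are used in that sense for counts. A name is that of the top Swiss-Prot match and states similarity, not identity. The rule for naming took the 10 largest differences each way among named genes whose mean over the 2 times was at least 10, and, among such members of each main list, those with the highest difference, the lowest difference and the highest mean. A member with that mean of at least 10 is called abundant below, the "highest" and "lowest" abundant members are so by their difference, and "most abundant" means the highest mean of deposited values; members under 10 can differ more. Other genes are marked as chosen afterwards, meaning after their values were seen.

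At 48 h the leaf transcripts held more of the light-harvesting, carbon-fixing and morning clock genes and of the diterpene entry enzyme than at 12 h, and less of the cytosolic ribosomal proteins, expansins and several jasmonate-synthesis genes. Of 29399 genes, 2918 were higher at 48 h and 4559 lower, which is 9.93% higher and 15.5% lower, together 25.4%. The median difference over all compared genes was -0.14. At 4-fold or more the counts were 952 higher and 999 lower, and at 16-fold or more 151 higher and 77 lower, so the higher genes outnumbered the lower ones among the largest differences. Among the 102 genes whose level reached 1000 at 48 or 12 h, 35 were higher and 24 lower. Rescaling the columns by the median ratio of genes would add 0.16 to every log2 ratio of 48 h over 12 h and move the median of all genes to -0.02, so a list median between -0.16 and 0 has no settled direction.

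For scale, the comparison of 24 h with 12 h, which shares the 12 h leaves, counted 3103 genes as higher and 3271 as lower, together 21.7%. The comparison of 48 h with 24 h, which shares the 48 h leaves, counted 694 as higher and 1324 as lower, together 6.86%. Of the genes with a Swiss-Prot name, "chloroplastic" stood in the name of 16.3% of those higher at 48 h, 7.45% of those lower and 8.35% of all compared. The deposited columns sum to 866243, 973347, 965390 and 932776 at 0, 12, 24 and 48 h, and the 10 genes with the highest mean level take 22.5% of that sum at 48 h and 19.95% at 12 h. The depth behind a value is unknown.

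**Figure D1:**
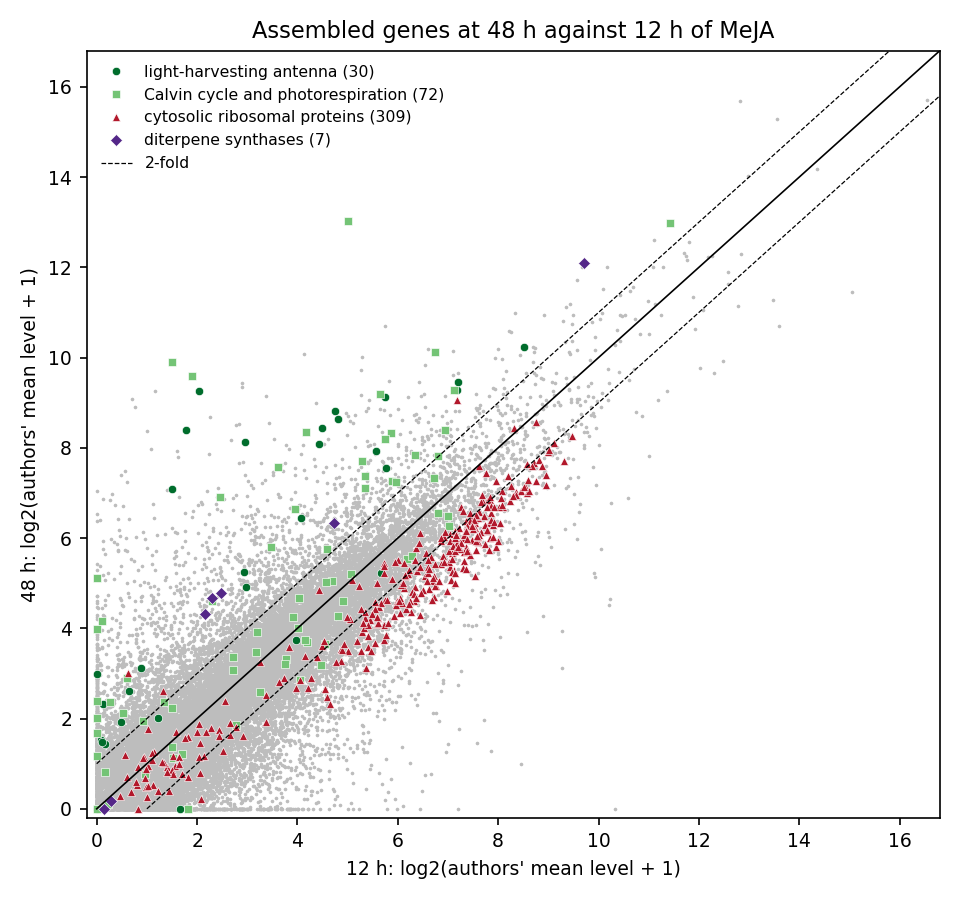
Each point is 1 of 29399 assembled genes, with log2(authors' mean level + 1) at 48 h on the vertical and at 12 h on the horizontal axis; the solid line marks equal levels and the dashed lines 2-fold. Most light-harvesting (30) and many Calvin cycle and photorespiration genes (72) lie above the upper dashed line, as do 5 of the 7 diterpene synthases, and 204 of the 309 cytosolic ribosomal protein genes lie below the lower one.

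If every treatment began at 1 clock time, the leaves of 48 h and of 12 h were taken at different hours of the day, while those of 0, 24 and 48 h shared their hour. The labels give no clock times and no untreated leaves of 12 or 48 h were analysed here, so time of day and time in MeJA cannot be told apart for any value below. In bulk leaves, fewer cells of a type and less RNA per cell cannot be told apart either. The leaf label was checked against its markers: the Rubisco small chain TR76467|c8_g3 stood at 8099 at 48 h and 2739 at 12 h. The 6 Rubisco activases summed to 8765 at 48 h and 57.04 at 12 h, and the 28 chlorophyll a-b binding proteins to 6449 and 1012. The leaf markers thus differed widely in how low they stood at 12 h. The summed level of the 12 root markers was 148 at 48 h and 139 at 12 h, with 0 members higher and 1 lower. The Casparian strip gene among them, TR76485|c0_g2 (chosen afterwards), was at 0.771 and 1.02, so other members held nearly all of that sum. The 40 flower markers summed to 1384 at 48 h and 1139 at 12 h (5 higher, 6 lower), with 0 and 0 members listed at 0. The 40 stomata markers summed to 222 and 195 (4 higher, 6 lower), with 1 and 0 at 0, and the 8 phloem and xylem markers to 121 and 91.1 (2 higher, 2 lower). Their part in the results below was not tested.

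**Figure D2:**
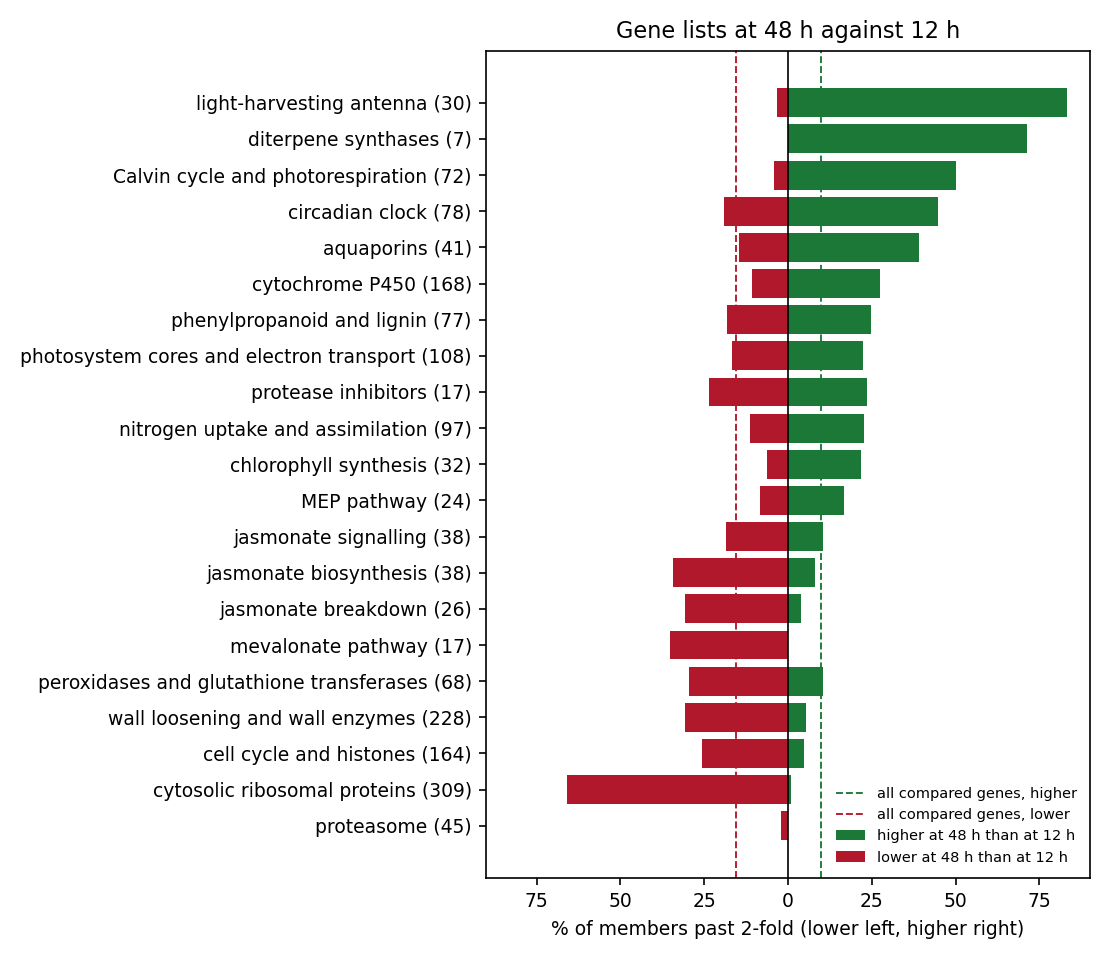
Bars give the percentage of each gene list's members that were higher at 48 h than at 12 h by 2-fold or more (green, to the right) or lower (red, to the left), with the number of measured members in parentheses; dashed lines give the same for all compared genes, 9.93% and 15.5%. The antenna list reaches furthest to the right and the cytosolic ribosomal proteins furthest to the left, while the proteasome list shows 0 higher and 1 lower of 45.

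The light-harvesting antenna was the list with the largest share of higher genes among those drawn. Its chlorophyll a-b binding proteins hold the pigments that pass light energy to the photosystems. Of 30 measured members, 25 were higher at 48 h and 1 was lower, with a median difference of 2.23, beside -0.14 over all genes. The summed level of the list was 36356, 1014, 5920.4 and 6586 at 0, 12, 24 and 48 h. The list thus stood above its 12 h sum at 48 h and far under its 0 h sum.

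Among its members, the highest abundant one was TR20636|c0_g2, chlorophyll a-b binding protein 13, at 616 at 48 h against 3.08 at 12 h, a log2 difference of 7.24. Its levels at 0 and 24 h were 2020.1 and 609. The LHCII type III protein (TR32853|c2_g2) followed with 334 at 48 h against 2.45 at 12 h. The most abundant member, chlorophyll a-b binding protein 21 (TR17188|c7_g3), differed less, with 1209.6 at 48 h against 363 at 12 h and a log2 difference of 1.73. An early light-induced protein (TR79546|c0_g2, chosen afterwards), of a family known to protect chloroplasts under strong light, had 136 against 1.84 and, unlike the binding proteins above, a 48 h level close to its 0 h level of 138. Not all members went the same way. Protein P4 (TR74538|c0_g1), the lowest abundant one, had 36.4 at 48 h and 49.9 at 12 h, within 2-fold, and TR38081|c0_g1 (chosen afterwards), the member counted as lower, was listed at 0 against 2.15.

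Carbon fixation and photorespiration genes were also higher at 48 h in many members and lower in few. The Calvin cycle fixes CO2 with the enzyme Rubisco, and photorespiration recovers carbon from the product of Rubisco's reaction with oxygen. Of 72 genes, 36 were higher and 3 lower (median 0.88). The summed level was 36956, 4787, 18063 and 24531 at 0, 12, 24 and 48 h. The differences between members were wide, from -1.81 to 8.41.

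A plastid fructose-bisphosphate aldolase 1 (TR54001|c1_g2), which joins triose phosphates in the cycle, had the largest positive difference of all abundant named genes. Its level was 963 at 48 h against 1.84 at 12 h, a log2 difference of 8.41, with 354 at 0 h and 404 at 24 h. A further aldolase (TR83759|c1_g1) had 774 against 2.72. Aldolase genes did not all differ so much: the 11 with a chloroplast name ran from -0.65 to 8.41, with 7 higher and none lower. Rubisco activase (TR86921|c9_g1), which frees Rubisco of bound sugar phosphates, had 8364 at 48 h against 30.97 at 12 h, a log2 difference of 8.03. Its levels at 0 and 24 h were 7713 and 5987, so the 12 h leaves stood apart from those of the other times. All 6 genes named Rubisco activase were higher, with differences from 2.10 to 8.03. The Rubisco small chain (TR76467|c8_g3), the most abundant member, differed by 1.56, with 19739, 2739, 6494 and 8099 over the 4 times. Thus its 48 h level was above that of 12 h and under that of 0 h, whereas Rubisco activase at 48 h was slightly above its own 0 h level.

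Phosphoribulokinase (TR14297|c1_g2), which regenerates the CO2 acceptor, had 291 at 48 h against 52.7 at 12 h. In photorespiration, the glycine decarboxylase P protein (TR82842|c0_g1) had 328 against 17.1, and the peroxisomal glycolate oxidase GLO1 (TR16371|c2_g1) 619 against 139. These 3 genes were chosen afterwards. The 33 photorespiration enzymes had 13 higher and 3 lower members and a median of 0.44, less than that of the whole list. The lowest abundant member of the list was a glycine cleavage H protein 2 (TR26640|c0_g2), at 8.17 against 21.1.

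Genes of the photosystem cores and electron transport were split. Of 108, 24 were higher and 18 lower (median 0.11). Groups by the genome that encodes the protein, chosen after the values were seen, cover part of the list: of 31 nuclear-encoded photosystem subunits 14 were higher and 1 lower (median 0.71), and of 24 assembled genes with hits to plastid-encoded proteins 0 were higher and 8 lower (median -0.31; 5 lower after median-ratio scaling). The 53 members in neither group had 10 higher and 9 lower. Plastid transcripts mostly lack the long poly(A) tails of nuclear ones, and the libraries were enriched for mRNA, so their levels here rest on what passed that step. The plastid summed level was 5547, 3360.2, 1337 and 991 over the course.

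The Photosystem II 22 kDa protein PsbS (TR81375|c0_g1), needed for the safe loss of excess light energy as heat, had 176 at 48 h against 10.4 at 12 h, the largest difference of the abundant members at 3.96. A further PsbS gene (TR84394|c1_g1, chosen afterwards) had 719 against 55.7. The most abundant member, the Photosystem II 10 kDa polypeptide (TR38528|c4_g2), had 3348 against 760.5. Subunits of the oxygen-evolving complex, which splits water, did not share a direction. Enhancer protein 1 was higher at TR63910|c1_g1, with 53.6 against 4.11, within 2-fold at TR85655|c1_g3, with 147 against 121, and enhancer protein 3-2 (TR77589|c1_g1) was lower, with 178 against 489.8 (all chosen afterwards). The lowest abundant member was a hit to the plastid-encoded reaction centre protein K (TR63922|c4_g2), at 10.2 against 51.1. The other assembled gene of that name (TR65657|c14_g2, chosen afterwards) had 616 against 2635.

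Chlorophyll synthesis showed a few large differences rather than a shift of the list, with 7 of 32 genes higher, 2 lower and a median of 0.29. The cyclase that closes the last ring of the pigment, magnesium-protoporphyrin IX monomethyl ester cyclase (TR43378|c0_g2), had 367 at 48 h against 6.15 at 12 h, and 978 at 0 h. The magnesium chelatase subunit ChlH (TR67008|c0_g2, chosen afterwards) had 99.5 against 4.25, while subunit ChlI (TR83726|c0_g1, chosen afterwards) had 48.5 against 29.1, within 2-fold. The lowest abundant member was uroporphyrinogen decarboxylase 1 (TR58777|c0_g1), an early step shared with heme, at 7.05 against 17.8. For chlorophyll breakdown, 6 of 27 genes stood higher and 6 lower. STAY-GREEN (TR28938|c0_g1), the magnesium dechelatase that starts breakdown, had 293 at 48 h against 96.6 at 12 h and 1.88 at 0 h. A second STAY-GREEN gene (TR74648|c2_g2, chosen afterwards) went the other way, with 80.8 against 189.6. Genes named pheophytinase also went both ways, from TR74559|c0_g2 at 38.8 against 3.26 to TR66725|c16_g1 at 11.1 against 51.7. The last is 1 of 3 assembled pieces of that name, whose sum differed by only -0.29.

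**Figure D3:**
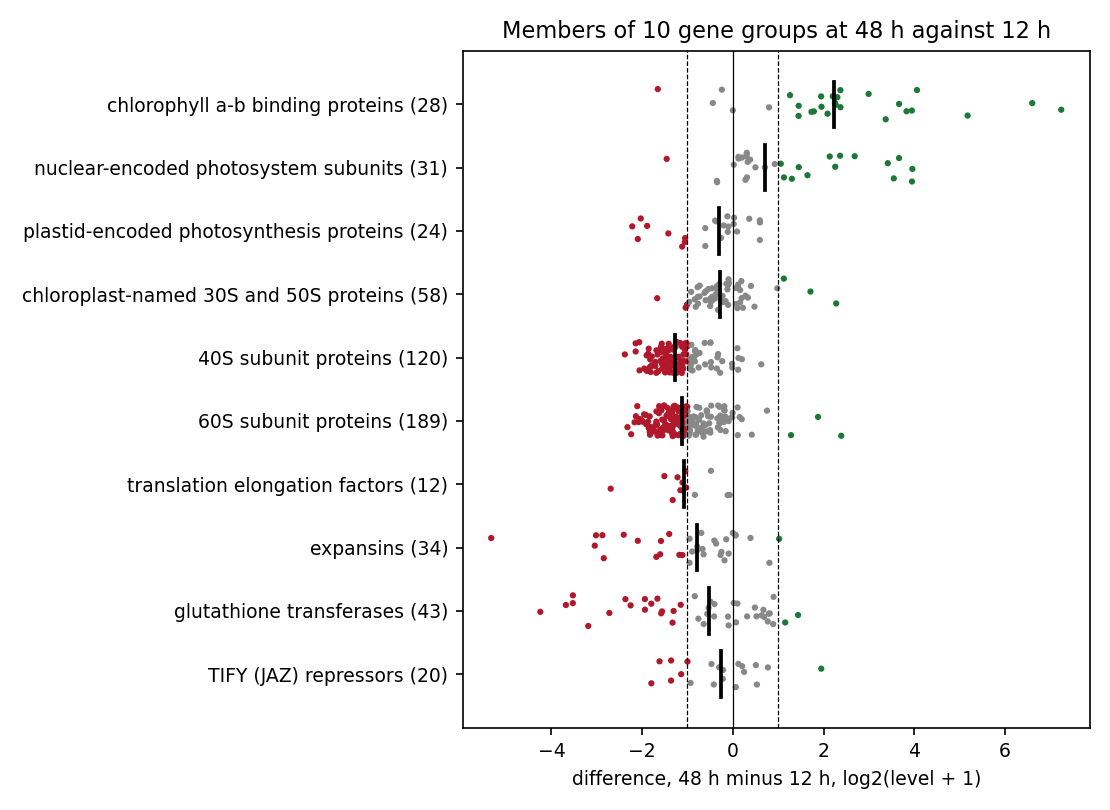
Each point is an assembled gene, placed by its difference in log2(level + 1), 48 h minus 12 h, in 10 gene groups chosen after values were seen; black bars are medians, dashed lines 2-fold, and points are jittered vertically. The chlorophyll a-b binding proteins centre on 2.23 and the nuclear photosystem subunits on 0.71, while the plastid-encoded proteins centre on -0.31 and the 40S and 60S proteins on -1.28 and -1.13.

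Starch and sugar genes went both ways. Over the list, 34 of 164 were higher and 32 lower (median -0.07), or 20.7% and 19.5%, beside 9.93% and 15.5% of all genes. Granule-bound starch synthase 1 (TR14279|c0_g1), which makes amylose, had 608 at 48 h against 1.24 at 12 h, a log2 difference of 8.09, with 321 at 0 h and 507 at 24 h. The other 5 starch synthases were within 2-fold. A plastid beta-amylase 1 (TR18883|c0_g3, chosen afterwards), which breaks starch to maltose, had 312 against 30.9. Invertases split sucrose into glucose and fructose, and the most abundant member of the list, a mitochondrial-type neutral invertase C (TR73577|c5_g1), had 348 against 986. Its component neighbour invertase A (TR73577|c5_g2, chosen afterwards) had 79.00 against 726. The lowest abundant member was a raffinose-synthase-type galactosyltransferase (TR81294|c4_g4), at 18.4 at 48 h against 475 at 12 h. Both invertases and this gene also stood far above their 0 h levels, which were 7.72, 6.48 and 40.6, at 12 h.

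The plant clock is a loop in which morning factors (LHY, REVEILLE) and evening genes (GIGANTEA, ELF, LUX) repress or activate each other over the day. Its morning factors and evening genes that passed 2-fold between the 48 h and 12 h leaves lay on opposite sides. Over 78 clock and light-signalling genes, 35 were higher at 48 h and 15 lower (median 0.59). Of 14 LHY and REVEILLE genes, 11 were higher and 0 lower (median 2.62). Of 10 cyclic dof factors, daytime repressors of flowering genes, 7 were higher and 3 lower, and of 26 CONSTANS-type genes 14 were higher and 4 lower. Of 16 evening genes, 0 were higher, 7 lower and 9 within 2-fold (median -0.38), and 5 were lower after median-ratio scaling. The 8 pseudo-response regulators, a further clock group, had 0 higher and 1 lower (median 0.24).

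LHY (TR49676|c1_g3) had 475 at 48 h against 0.700 at 12 h, a log2 difference of 8.13 and the second largest positive one among the abundant named genes. It stood at 383 at 0 h and 494 at 24 h, so only the 12 h mean was low. REVEILLE 8 (TR50358|c1_g4), an activator of evening genes, had 71.7 against 0.357, and CONSTANS-LIKE 2 (TR84404|c0_g1) 114 against 0.201 (both chosen afterwards). Each of these was likewise high at 0 and 24 h. EARLY FLOWERING 4 (TR49144|c0_g1), part of the evening complex, showed the mirror image, with 0.827, 100.1, 1.94 and 0.720 at 0, 12, 24 and 48 h. GIGANTEA (TR32264|c0_g2) had 28.1 at 48 h against 212 at 12 h, and the blue-light receptor ADAGIO 3 (TR72951|c0_g1) 0.0600 against 27.97 (both chosen afterwards). Among evening genes this was not uniform: LUX was lower at TR21635|c3_g1, with 6.11 against 24.7, and level at TR58556|c7_g2, with 25.1 against 25.8 (chosen afterwards).

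Some genes outside the clock list had the same shape of values over the 4 times. A hit to the ultraviolet-B receptor UVR8 (TR24452|c0_g1) had 314, 0.402, 251 and 168 at 0, 12, 24 and 48 h. A hit to a retrovirus-related Pol polyprotein (TR76427|c2_g2), a transposon sequence, had 416, 1.12, 299 and 249. A hit to cyclin-dependent kinase D-1 (TR74130|c2_g1) had 1277, 16.5, 975 and 1084, and was both the highest abundant and the most abundant member of the cell cycle list. Glycine-rich RNA-binding proteins showed the reverse: TR15160|c1_g2 had 9.65, 620.4, 16.4 and 7.71, and TR15160|c1_g3 of the same component 60.3, 1188, 24.4 and 21.9. The first 3 were low at 12 h alone and the last 2 high at 12 h alone.

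**Figure D4:**
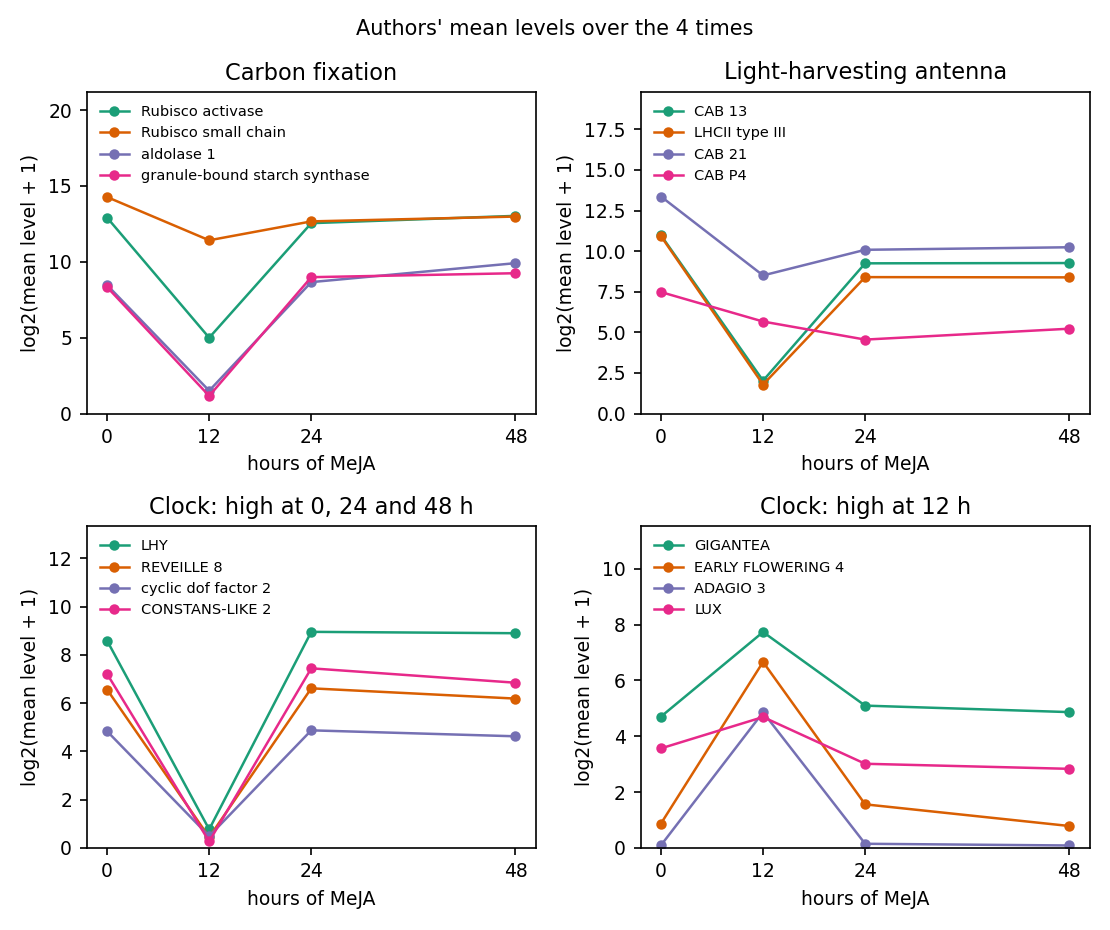
The panels plot log2(authors' mean level + 1) against hours of MeJA treatment for 3 carbon fixation genes with granule-bound starch synthase, 4 antenna genes, 4 clock genes high at 0, 24 and 48 h and 4 clock genes high at 12 h, with 1 mean per point and no error bars. Rubisco activase dips to 30.97 at 12 h and is at 8364 at 48 h, LHY is at 0.700 and 475 at the same times, and GIGANTEA peaks at 212 at 12 h. Levels of TR86921|c9_g1, TR49676|c1_g3 and TR32264|c0_g2 are the ones quoted, and heights of different genes are not comparable.

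Genes for cytosolic ribosomal proteins, the protein part of the cell's main ribosomes, were lower at 48 h as a group. Of 309 genes, 204 were lower and 3 higher (median -1.20), beside 15.5% lower and a median of -0.14 over all genes. The summed level was 33684, 37615, 19344 and 16314 at 0, 12, 24 and 48 h, so the 12 h leaves were near the 0 h leaves and the later leaves under both. Of 120 small-subunit (40S) genes 86 were lower and 0 higher, and of 189 large-subunit (60S) genes 118 were lower and 3 higher. The median lies close to the 2-fold limit, so the count moves with the scaling: 163 genes were lower after median-ratio scaling, with a median of -1.04.

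The most abundant member, L31 (TR20682|c0_g1), had 306 at 48 h against 705 at 12 h, and the lowest abundant one, S28-1 (TR17203|c1_g6), 34.8 against 185. The highest abundant member was a hit to the ubiquitin fusion of L40 (TR81843|c5_g14), at 529 against 143. This precursor also yields ubiquitin, and polyubiquitin genes share that sequence. Genes of translation elongation, which move the ribosome along, went the same way: of 12, 8 were lower and 0 higher (median -1.08). With that median near the 2-fold limit, 4 were lower after median-ratio scaling and 6 after scaling to the total without the 10 most abundant genes. An elongation factor 1-alpha gene (TR65377|c2_g1, chosen afterwards) had 240.3 against 604, while elongation factor 2 (TR72043|c0_g3, chosen afterwards) had 151 against 164. Ribosomal proteins of bacterial type, used in plastids and mitochondria, differed less, with 13 of 96 lower, 4 higher and a median of -0.45. Their lower share of 13.5% was under the 15.5% of all genes, and after median-ratio scaling 6 were lower and 5 higher. Of the 58 among them with a chloroplast name, 3 were higher and 3 lower. Among the abundant members of that list the chloroplast S1 protein (TR34982|c0_g1) was highest, at 62.3 against 12.03, L33 (TR23428|c0_g1) lowest, at 40.7 against 95.4, and L28 (TR18966|c0_g3) most abundant, at 158 against 174. The proteasome, which degrades proteins, had 0 higher and 1 lower of 45 genes.

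Jasmonate synthesis genes were lower at 48 h in several steps. Of 38, 13 were lower and 3 higher (median -0.79). The summed level was 897, 10802, 5151 and 7179 over the 4 times, so at 48 h it was still far above 0 h. The median came to -0.36 with a pseudocount of 5 and to -0.23 with 1 assembled gene per Swiss-Prot entry.

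By step, 13-lipoxygenases start the route by adding oxygen to linolenic acid, and a pair of abundant assembled genes did not go together. TR60361|c4_g2, the most abundant member of the list, had 4109.5 at 48 h and 2498 at 12 h, within 2-fold. TR60361|c4_g4 (chosen afterwards), of the same component and name, had 809 against 5078. Reads of near-identical copies may have been divided between such pieces, which was not tested. Allene oxide synthase, the next step, was higher at TR46466|c0_g1, with 82.1 against 37.8, and the other 3 of that name were within 2-fold. Allene oxide cyclase 2 (TR76470|c1_g4), which sets the ring of the precursor, had 437 at 48 h against 945 at 12 h. It had 435 at 24 h, so its 24 and 48 h means were alike. The reductase OPR3 (TR35545|c2_g2) had 212 and 209. These genes from TR46466|c0_g1 on were chosen afterwards.

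In the peroxisomal steps that shorten the side chain, 5 of 14 genes were lower and 1 higher. Acyl-CoA oxidase 1 was both the highest and the lowest abundant member: TR17130|c7_g1 had 44.5 against 19.5 and TR83858|c0_g2 3.59 against 60.4. JAR1 (TR14300|c0_g2, chosen afterwards), which joins jasmonic acid to isoleucine, had 6.21 against 28.6. All 3 assembled genes named jasmonate O-methyltransferase, the enzyme that makes MeJA, were lower and belong to 1 component. The most abundant of these, TR50123|c1_g2 (chosen afterwards), had 0.0457, 47.9, 18.9 and 12.5 at 0, 12, 24 and 48 h.

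Jasmonate signalling genes lay close to the shares of all genes. Over 38, 4 were higher and 7 lower, or 10.5% and 18.4%, beside 9.93% and 15.5% (median 0.16). A receptor subunit COI1 gene (TR19628|c2_g1, chosen afterwards) had 13.6 at 48 h against 4.72 at 12 h and 22.2 at 0 h, and the other 2 COI1 hits were within 2-fold. Of the 20 TIFY repressors, 6 were lower and 1 higher. The most abundant, TIFY 10A (TR47119|c4_g4), had 992 and 911, and TIFY 6B (TR67092|c1_g4), the highest abundant member, 30.8 against 7.22. TIFY 9 (TR81360|c4_g2) had 325 against 836 and TIFY 5A (TR24440|c0_g2) 103 against 359.8 (both chosen afterwards). Even these lower repressors were far above 0 h, at which they were listed at 0.977 and 0.933.

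Among the 8 MYC factors, which switch on jasmonate responses, none was higher and 1 was lower. MYC2 was level at TR24422|c0_g1, with 252 and 178, and at TR78965|c1_g1, with 227 and 189 (both chosen afterwards). A MYC3 hit (TR78965|c1_g2) was listed at 0 at 48 h against 62.2 at 12 h. It shares its component with the second MYC2 gene, and a 0 in such an estimate can be a failed assignment. The Ninja-family adaptors, which link JAZ proteins to co-repressors, had 2 higher and 0 lower of 7.

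In jasmonate breakdown 8 of 26 genes were lower and 1 higher (median -0.28). The most abundant, a CYP94 cytochrome P450 (TR35519|c0_g1) of the family known in Arabidopsis to oxidise jasmonoyl-isoleucine, had 0.470, 376, 233 and 114 at 0, 12, 24 and 48 h. A cytosolic sulfotransferase (TR57879|c7_g4) was the lowest abundant member, at 15.2 at 48 h against 72.5 at 12 h, and an amidohydrolase of the ILR1 type (TR82895|c2_g1) the highest abundant one, at 15.5 and 9.28, within 2-fold.

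Isoprenoid genes of the mevalonate route held only lower members past 2-fold, the diterpene synthases only higher ones, and the plastid supply route both. The methylerythritol phosphate (MEP) route in plastids supplies diterpenes, carotenoids and the chlorophyll tail, and the mevalonate route in the cytosol supplies sterols and most sesquiterpenes. In the MEP list 4 of 24 genes were higher and 2 lower (median -0.13), and its summed level was 6928 at 48 h against 4228 at 12 h. In the mevalonate list 0 of 17 were higher and 6 lower (median -0.29), with a summed level of 341 against 811. In the diterpene synthase list 5 of 7 were higher and 0 lower (median 2.16). Under both rescalings of the columns the mevalonate list kept a negative median and the diterpene list a positive one, while the MEP median came to 0.00 or -0.04, so no direction is given for that list.

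At the entry of the MEP route, the synthase DXS (TR67055|c4_g1, chosen afterwards) had 185, 306, 1134 and 1516 at 0, 12, 24 and 48 h. Of 6 DXS genes 2 were higher and 4 within 2-fold (median -0.41). The reductoisomerase DXR (TR50722|c0_g4), the next step, was the lowest abundant member, with 164 at 48 h against 407 at 12 h. The synthase HDS had a higher copy (TR59165|c5_g1, chosen afterwards), at 1178 against 426, while of its 8 genes 1 was lower and 6 were within 2-fold. The reductase HDR, the last step, had the widest gap between copies: TR64335|c4_g1 had 848 against 37.3, a log2 difference of 4.47, and the most abundant member of the list, TR51094|c2_g1, had 1558 and 1327. Higher and lower genes thus stood side by side within 1 route, with copies of the entry and exit enzymes among the higher.

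In the mevalonate route, HMG-CoA reductase, its main control step, was lower at TR59188|c3_g3, with 18.4 at 48 h against 198 at 12 h and 6.41 at 0 h. HMG-CoA synthase (TR39861|c0_g1, chosen afterwards) had 31.2 against 96.1. The other 3 of 4 HMG-CoA synthases were within 2-fold, as were 4 of 6 HMG-CoA reductases. Isopentenyl diphosphate isomerase II (TR66997|c1_g2), the most abundant member, had 126 against 263, a log2 difference of -1.06 that falls within 2-fold under either rescaling. The highest abundant member, a cytosolic acetyl-CoA acetyltransferase (TR85307|c0_g1), had 30.5 and 29.97.

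Ent-copalyl diphosphate synthase makes the bicyclic diphosphate from which labdane-type and gibberellin-type diterpenes derive. Its most abundant gene, TR66725|c19_g3, had 359, 834, 3374 and 4348 at 0, 12, 24 and 48 h, a log2 difference of 2.38 and 5.21-fold at 48 h over 12 h. The genes TR66725|c19_g1 and TR66725|c19_g4, with 24.6 against 3.91 and 79.9 against 25.4, belong to the same component, as does a copal-8-ol diphosphate hydratase hit (TR66725|c19_g5, chosen afterwards) with 19.05 against 3.48, so 4 of the 5 higher genes may share sequence. The fifth, a hit to the same hydratase from another component (TR81299|c1_g1, chosen afterwards), had 26.7 against 4.55. The 2 remaining genes, TR57874|c0_g2 and TR57874|c0_g3, were at or under 0.221 at both times.

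The prenyl diphosphate synthases that feed these routes showed no common direction, with 3 of 19 higher and 4 lower. Geranylgeranyl diphosphate synthase, the direct source of diterpenes, was higher at TR79634|c0_g1, with 229.7 against 70.5, and lower at TR18674|c2_g3, with 325 against 868 (both chosen afterwards). The same enzyme name thus stood on both sides. Its small-subunit hit (TR65835|c2_g2), the most abundant member, had 541 and 702. Synthases for other products also stood apart. Solanesyl diphosphate synthase 1 (TR45514|c0_g3), for the side chain of plastoquinone, had 102 against 24.2, and farnesyl diphosphate synthase 2 (TR40024|c0_g1), at the branch to sesquiterpenes, 3.74 against 21.1.

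Synthases of volatile mono- and sesquiterpenes were mixed, with 4 of 16 higher and 3 lower. Beta-caryophyllene synthase (TR48613|c1_g1) was at 0.195, 382, 62.9 and 14.01 at 0, 12, 24 and 48 h, a log2 difference of -4.67. Nerolidol synthase 2 (TR24462|c6_g2), the most abundant, stayed within 2-fold, with 538 and 764. Gamma-cadinene synthase (TR39984|c2_g1) was higher, with 41.6 against 9.59. Geraniol 8-hydroxylase (TR74264|c0_g2), a P450 of iridoid synthesis in other species, was among the 10 largest differences and was listed at 0 at 12 h, with 131 at 48 h and 96.7 at 0 h. Among 36 sterol and triterpene enzymes 5 were higher and 5 lower, the abundant ones ranging from squalene monooxygenase (TR74157|c6_g11), at 32.5 against 4.30, to a sterol C-methyltransferase 2 (TR67193|c0_g1), at 11.4 against 56.9. Lupeol synthase (TR57922|c0_g1), of triterpenes, was the most abundant, at 76.7 and 130.0.

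**Figure D5:**
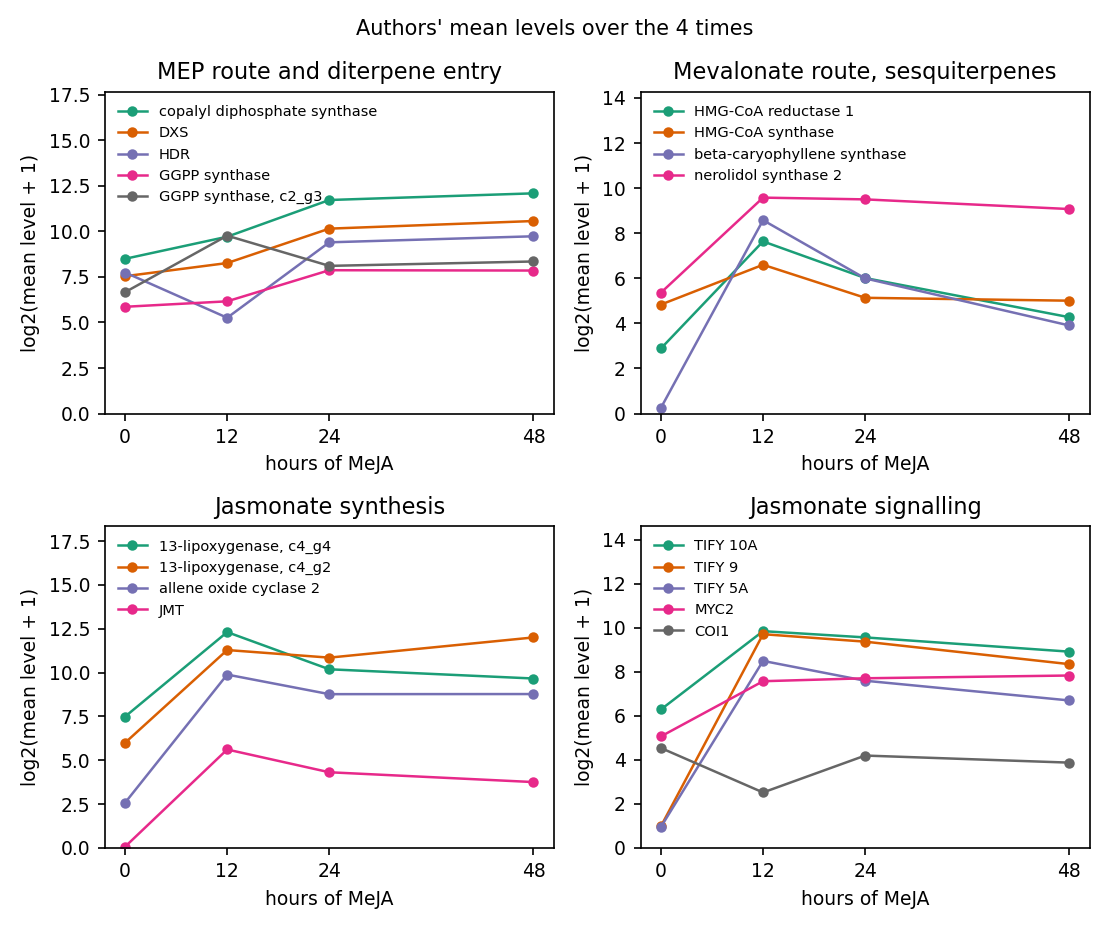
The panels plot log2(authors' mean level + 1) against hours of MeJA treatment for genes of the MEP route and diterpene entry, the mevalonate route and sesquiterpenes, jasmonate synthesis and jasmonate signalling (TIFY 10A is TR26630|c9_g6, chosen afterwards), with 1 mean per point and no error bars; heights of different genes are not comparable. The copalyl diphosphate synthase TR66725|c19_g3 climbs to 4348 at 48 h, while HMG-CoA reductase TR59188|c3_g3 and beta-caryophyllene synthase TR48613|c1_g1 peak at 12 h, at 198 and 382.

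Cytochromes P450, the oxygenases of many specialised pathways, were higher at 48 h more often than all compared genes, 46 of 168, or 27.4%, beside 9.93%, and 18 were lower. The most abundant, a CYP736A12 hit (TR26978|c11_g4), had 1747, 2171, 4316 and 4129.9 over the course, just within 2-fold for 48 h against 12 h and just past it under either rescaling. The highest abundant member, a CYP750A1 hit (TR82420|c4_g4), had 84.3 at 48 h against 0.349 at 12 h. A pair of CYP71D11 hits (TR49757|c4_g1 and TR49702|c1_g1, chosen afterwards) had 1034 against 37.9 and 919.5 against 92.3. The lowest abundant member was a CYP72A219 hit (TR79615|c17_g2), at 3.52 and 1291 at 0 and 12 h and listed at 0 at 24 and 48 h, which gave the largest difference in size of all abundant named genes, -10.34. Its component neighbour TR79615|c17_g1, named for an ethylene receptor, had 19.1, 4659.9, 3982 and 4786, and whether reads passed between the 2 pieces was not tested. Another CYP72A219 hit (TR83317|c0_g2, chosen afterwards) from a component of its own was lower without a 0, with 266 against 838. Glycosyltransferases of the UDP family had 24 higher and 31 lower of 164, or 14.6% and 18.9%, beside 9.93% and 15.5% of all genes. After median-ratio scaling 26 were higher and 26 lower, so no direction is given. The abundant ones ranged from UGT74E2 (TR25541|c0_g1), at 168 against 10.4, to a 7-deoxyloganetic acid glucosyltransferase hit (TR72986|c0_g1), at 0.853 against 42.3. The most abundant, a crocetin glucosyltransferase hit (TR17166|c6_g1), had 481 against 1057, and its difference of -1.13 falls within 2-fold under median-ratio scaling.

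The phenylpropanoid route leads from phenylalanine to lignin and flavonoids. The list had 19 higher and 14 lower of 77 genes, or 24.7% and 18.2%, beside 9.93% and 15.5% of all genes. Of 8 genes of the entry enzyme, phenylalanine ammonia-lyase, 2 were higher and 6 within 2-fold. The higher TR15417|c2_g2 had 163, 84.3, 391 and 705 at 0, 12, 24 and 48 h. Cinnamate 4-hydroxylase (TR70016|c0_g4) had 465 at 48 h against 49.2 at 12 h (both chosen afterwards). The most abundant member, 4-coumarate-CoA ligase 1 (TR79633|c6_g2), had 586 against 272. Of the lignin branch, cinnamoyl-CoA reductase 2 was the highest abundant member (TR14301|c0_g1, 50.2 against 2.52) and caffeoylshikimate esterase the lowest (TR45843|c1_g2, 51.4 against 329). A dirigent protein 2 hit (TR69029|c0_g2), of a family that steers the coupling of lignans, had 0.319 against 88.6, one of the 10 largest negative differences.

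Of 93 flavonoid enzymes 23 were higher and 16 lower, or 24.7% and 17.2%, beside 9.93% and 15.5% of all genes. Chalcone synthase (TR69279|c0_g1, chosen afterwards), which starts flavonoid synthesis, had 23.8, 12.7, 59.2 and 266 at 0, 12, 24 and 48 h. The flavonol regulator MYB12 (TR45734|c0_g1), known in Arabidopsis to switch on chalcone synthase, was the highest abundant MYB factor, with 35.5 at 48 h against 0.0953 at 12 h. Naringenin 3-dioxygenase (TR82302|c0_g1, chosen afterwards), a later step, was lower, with 34.3 against 267. Flavonoid 3',5'-hydroxylase hits of 1 component were the highest and lowest abundant members: TR26978|c11_g7 had 84.8 against 0.554, and TR26978|c11_g1 was listed at 0 at 48 h against 36.3 at 12 h. The most abundant member, a 2-hydroxyisoflavanone dehydratase hit (TR18910|c4_g2), had 1579.8 against 3879.8.

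Defence proteins that act on insects did not move as a block. Of 17 protease inhibitors, which block digestive enzymes of herbivores, 4 were higher and 4 lower. A Kunitz-type inhibitor hit (TR83819|c4_g1) had 16.3, 11976, 14436 and 40279 at 0, 12, 24 and 48 h, and with it the summed level of the list was 47872 at 48 h against 26982 at 12 h. Sporamin hits of the same inhibitor class were lower at 48 h: TR45313|c4_g1 (chosen afterwards) had 2484 against 11365 and TR45313|c4_g2 53.3 against 1054. Cysteine proteinase inhibitor 5 (TR27652|c1_g2) was the highest abundant member, with 204 against 6.60. Outside the protease inhibitor list, a 21 kDa protein hit (TR83908|c0_g2) was among the 10 largest negative differences, with 1.76 against 189.

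Of 40 further anti-herbivore enzymes 6 were higher and 13 lower, or 15% and 32.5%, beside 9.93% and 15.5% of all genes. After either rescaling of the columns 6 were higher and 9 lower. A hit to a biosynthetic threonine dehydratase (TR32416|c5_g3), placed in the list by its name alone, had 2456 and 2031. Leucine aminopeptidase (TR50768|c4_g1, chosen afterwards) had 1967 against 715, and polyphenol oxidase F (TR81983|c2_g2, chosen afterwards) 357 against 737. The 3 enzymes thus differed in direction, and the first was within 2-fold. Beta-glucosidases, which release toxic aglycones, were the highest and lowest abundant members, from BGLU44 (TR48637|c1_g3), at 124 against 30.4, to BGLU42 (TR31024|c0_g1), at 5.70 against 146. Of 94 pathogenesis-related proteins 5 were higher and 18 lower, or 5.32% and 19.1%, the lower share being near that of all genes. After median-ratio scaling 7 were higher and 15 lower. Abundant members ranged from an acidic endochitinase (TR14062|c1_g1), which cuts fungal chitin, at 19.1 and 9.88, within 2-fold, to a PR5 hit (TR34507|c3_g1) at 1.38 against 33.7. The most abundant, a beta-1,3-glucanase (TR77809|c2_g2), had 520.4 and 584.

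Glutathione transferases, which join glutathione to reactive or foreign compounds, were lower at 48 h in 17 of 43 genes and higher in 2. The most abundant of the list, TR74651|c7_g3, had 45.7, 1029.7, 493 and 268 at 0, 12, 24 and 48 h. When pieces of its component with the same name were added up, the difference of -1.94 became -0.90, within 2-fold. GSTU20 (TR22239|c0_g1) was the lowest abundant one, with 5.10 at 48 h against 115 at 12 h. An epoxide hydrolase 2 hit (TR35027|c1_g3), an enzyme that opens epoxides with water, had the second largest negative difference of all abundant named genes, -7.47, with 0.126, 351, 2.11 and 0.986 over the course. The epoxide hydrolase hit was thus high at 12 h almost alone. The highest abundant member of the list of peroxidases and transferases was a further transferase (TR34069|c0_g1), at 36.1 against 12.7, and that list had 7 higher and 20 lower of 68.

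Cell wall genes as a list were lower more often than the compared genes together, though not in every group. Of 228 wall enzymes 70 were lower and 12 higher, or 30.7% lower (median -0.40), beside 15.5% of all genes. Pectin enzymes had 27 lower and 2 higher of 95. Xyloglucan endotransglucosylases had 4 lower and 3 higher of 14 (median 0.06), and cellulose synthases 4 lower and 1 higher of 20 (median -0.12). Expansins, which loosen the wall as cells enlarge, had 13 lower and 1 higher of 34, and their summed level was 1898, 989, 481 and 101 at 0, 12, 24 and 48 h. Expansin A15 (TR24021|c0_g1) had 149, 619.9, 68.5 and 14.5, and Expansin A8 (TR86988|c3_g1) 1000.2, 79.1, 251 and 14.1 (both chosen afterwards). The first peaked at 12 h and the other was highest at 0 h, and both were lowest at 48 h. COBRA-like protein 1 (TR15719|c1_g1), of a family that guides cellulose deposition, was the lowest abundant member, with 2.38 against 148, and a CESA6-type cellulose synthase (TR44309|c6_g2), the most abundant, had 416 against 968. The highest abundant one was a pectinesterase hit (TR49413|c2_g2), at 15.99 against 4.76.

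Aquaporins, the water channels, were higher in 16 and lower in 6 of 41 genes, with a median of 0.47. The plasma membrane type accounted for 9 of the higher genes, with a summed level of 4961 at 48 h against 1639 at 12 h. The vacuolar type summed to 4133 against 6498. Most of the vacuolar sum came from TIP1-1 (TR58607|c6_g9). Of the 13 vacuolar-type genes 3 were higher and 2 lower (median 0.07), so no direction is given for that type. Among abundant aquaporins PIP2-4 (TR39501|c0_g2) was the highest, at 73.4 against 4.01, a PIP2-7 hit (TR44285|c0_g1) the lowest, at 8.08 against 38.5, and TIP1-1 (TR58607|c6_g9) the most abundant, at 3788 and 6118. Auxin genes as a list had 16 higher and 32 lower of 148, or 10.8% and 21.6%, beside 9.93% and 15.5% of all genes. An auxin-binding protein ABP19a hit (TR86742|c0_g1), a germin-type protein, had 2681, 9.38, 402 and 566 at 0, 12, 24 and 48 h.

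Among the 10 largest negative differences, 2 turned round once pieces of the same component and name were added up. An asparaginase hit (TR44341|c3_g1) was listed at 0 at 48 h against 147 at 12 h, but the 4 pieces of that component and name together were higher by 0.61. An inorganic pyrophosphatase 1 hit (TR61981|c5_g3) was listed at 0 against 85.98, but its pieces together were higher by 0.45. The metal-nicotianamine transporter YSL3 (TR12567|c0_g1), which moves iron and copper complexes, was the only compared gene of its component and stood at 0, 67.6, 0.451 and 0.0453 over the course. In all, 36 genes were listed at 0 at 48 h with a level of at least 10 at 12 h, and 29 were listed at 0 at 12 h with a level of at least 10 at 48 h.

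Transcription factor families other than those of the clock and the jasmonate response went both ways. NAC factors had 10 higher and 4 lower of 58, WRKY factors 13 higher and 10 lower of 81, AP2/ERF factors 12 higher and 29 lower of 117, MYB factors 22 higher and 23 lower of 117, and bHLH factors 9 higher and 19 lower of 101. Of abundant NAC factors, NAC2 (TR8585|c0_g1) was highest, with 98.5 at 48 h against 23.2 at 12 h. NAC78 (TR45447|c2_g2) was lowest, with 8.27 and 14.1, within 2-fold, and NAC72 (TR83229|c0_g1), known from drought and senescence in Arabidopsis, most abundant and level, with 284 and 308. WRKY factors act in defence and senescence, and their abundant members ranged from WRKY11 (TR41548|c0_g1), at 43.6 against 13.9, to WRKY18 (TR82306|c0_g1), at 32.4 against 92.6. Its most abundant member WRKY17 (TR79284|c1_g2) had 266 against 132, a log2 difference of 1.00, just past 2-fold.

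Among AP2/ERF factors, many of which answer ethylene or jasmonate, the highest abundant member, a RAP2-10 hit (TR82548|c0_g2), had 43.2 at 48 h against 6.29 at 12 h and the lowest, an ERF3 hit (TR15703|c0_g1), 1.66 against 35.2. The most abundant, an ERF2 hit (TR19001|c3_g3), was level, with 136 and 138. Of abundant MYB factors, a MYB4 hit (TR49704|c3_g3) was lowest, with 4.14, 201, 55.8 and 25.04 at 0, 12, 24 and 48 h, so its peak was at 12 h. The most abundant, a MYB5 hit (TR79485|c1_g2), had 318 against 125. The MYB list thus held abundant members on both sides. Of abundant bHLH factors, bHLH130 (TR42274|c4_g1) was highest, with 24.3 against 3.26, and bHLH63 (TR50341|c2_g4) lowest, with 93.4, 20.5, 5.42 and 1.29, lower at each later time. The most abundant, a bHLH19 hit (TR49758|c6_g1), had 143 against 386.

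Other hormone lists had members in both directions, beside 9.93% higher and 15.5% lower over all compared genes. Abscisic acid genes lay close to those shares, with 17 higher and 26 lower of 157, or 10.8% and 16.6%. The dioxygenase NCED1 (TR85315|c2_g10), the committed step of abscisic acid synthesis, had 1.66, 11.96, 49.3 and 82.1 at 0, 12, 24 and 48 h, while the dehydration protein Lea5 (TR74169|c1_g7), the most abundant of the list, had 2262 at 48 h against 7060.4 at 12 h. A protein phosphatase 2C hit (TR76466|c1_g2) was the lowest abundant member, with 22.1 against 77.6. Ethylene genes had 4 higher and 8 lower of 67, or 5.97% and 11.9%. Cytokinin and salicylic acid genes had 9 higher and 12 lower of 47, or 19.1% and 25.5%. Gibberellin genes had 7 higher and 6 lower of 29, or 24.1% and 20.7%. ACC oxidase 4 (TR82369|c1_g1), which releases ethylene, was the lowest abundant ethylene gene, at 17.4 against 103, and an ACC oxidase homolog (TR50343|c6_g4) the highest, at 34.8 against 16.3. Among abundant auxin genes the lowest was the influx carrier LAX3 (TR19861|c0_g1), at 3.25 against 26.9.

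A list of GDSL esterases, lipid transfer proteins and wax genes had 40 higher and 70 lower of 227. These are 17.6% and 30.8%, beside 9.93% and 15.5% of all genes. The 130 GDSL esterases made up most of it, with 22 higher and 44 lower. The 49 lipid transfer proteins had 11 higher and 16 lower, and 12 higher and 12 lower after median-ratio scaling, so no direction is given for them. A non-specific lipid-transfer protein (TR23777|c5_g8), the most abundant, had 6123, 8025, 7251 and 16559.9 at 0, 12, 24 and 48 h. GDSL lipases were the highest and lowest abundant members, with TR82524|c0_g1 at 38.1 at 48 h against 1.22 at 12 h and TR86940|c5_g2 listed at 0 against 31.2. ABC transporters, pumps for many metabolites, had 12 higher and 11 lower of 99, or 12.1% and 11.1%. Their highest abundant member ABCF5 (TR45495|c0_g3) had 233 against 15.7, their lowest abundant member ABCB15 (TR64602|c0_g1) 15.2 against 57.9, and the most abundant, ABCC4 (TR40004|c4_g2), 624 and 677. Genes of the mitochondrial respiratory chain had 4 higher and 10 lower of 105, or 3.81% and 9.52%, both under the shares of all genes. They had 5 higher and 4 lower after median-ratio scaling. Cell cycle genes with histones had 8 higher and 42 lower of 164, and 9 higher and 33 lower after that scaling.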

How the data were processed

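Leaf mRNA was sequenced at 4 times with 3 labelled replicates each. Per the file headers, the deposited table gives 1 normalised expression signal per assembled gene and time, with no counts. Each value is, within 1% of the step, a multiple of 0.001 divided by 3, which is what averaging 3 numbers of 3 decimals gives. CASAVA, FastQC 0.11.3, Trimmomatic 0.33 and RSEM 1.2.19 stand in the submitters' processing notes. The signal's unit, any scaling by length, the assembler and the depth were not found in the sources used here.

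Genes reaching a level of 1 at any time were compared by log2(level + 1), 48 h minus 12 h, and counted at a difference of 1 (2-fold). The planned tests need replicate values, so a rule of size stands in and there is no p-value, SD or interval. The size rule was tested on simulated data. The 49 gene lists match Swiss-Prot names; their patterns were corrected by names alone once the table was read, and the members and lists were chosen with earlier results of these data known. The 66 subgroups were chosen after values were seen. Named genes are the 10 largest differences each way among named genes with a mean of at least 10 over the 2 times, and the highest, lowest and most abundant such member of each main list, with 1 unnamed gene as the most abundant. A gene of the plant may be split over several assembled genes. The alternatives were other pseudocounts, level limits, scalings, thresholds and ways of joining pieces. Python 3.11.15, pandas 2.3.3, numpy 2.4.6 and matplotlib 3.10.9 were used. No sequence is shown, since no reference used here holds the table's gene names.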

Additional observations from a re-analysis of the deposited data

How the results depend on the processing

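No paired analysis was possible because the table gives 1 mean per time, and for the same reason no replicate could be left out. Values of lists were taken as moved where they shifted by more than 0.25 and by more than 1.5 times. The number of genes higher at 48 h was 4433 with a pseudocount of 0.1, 1463 with 5, 1840 at a level limit of 10 and 1475 at 3-fold, beside 2918. The number lower was 1953 with a pseudocount of 5, 2525 at the level limit of 10 and 1803 at 3-fold, beside 4559. The wall enzyme median was -0.70 with a pseudocount of 0.1 and -0.88 at the level limit of 10. The jasmonate biosynthesis median was -0.36 with a pseudocount of 5 and -0.23 with 1 assembled gene per Swiss-Prot entry, and the Calvin cycle median 0.51 and 1.39 under the same alternatives. The cause was not tested. With pieces of a component summed, TR44341|c3_g1 turned to 0.61 and TR61981|c5_g3 to 0.45. Of 778 repeats for named genes, 764 kept direction and side of 2-fold, 9 fell within 2-fold and 3 came past it. Of 441 repeats for list medians, 34 moved. Among the moved medians was that of the circadian clock, at 1.04 with a pseudocount of 0.1 and 0.24 with 5, beside 0.59. The level limit of 10 moved 17 values, gene counts among them, and left 34 unmoved. Depth is unknown, so low levels, above all those under 1, carry the least weight.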

Other observations

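Of 97 nitrogen genes 22 were higher at 48 h, 11 lower and 64 within 2-fold, or 22.7% higher beside 9.93% of all genes. Some genes of nitrate assimilation were among the higher. Nitrate reductase (TR26782|c0_g2, chosen afterwards), which turns nitrate to nitrite, had 54.8, 7.30, 88.3 and 104 at 0, 12, 24 and 48 h, and nitrite reductase (TR13385|c3_g1, chosen afterwards), the next step, 83.5, 5.56, 52.9 and 117. Plastid glutamine synthetase (TR49722|c1_g1, chosen afterwards), which binds the ammonium, had 236 at 48 h against 83.2 at 12 h. The highest and lowest abundant members of the list were transporters of the NRT1/PTR family, TR13794|c1_g2, at 152 against 7.13, and TR82415|c2_g3, at 11.3 against 40.5, both named family 3.1. The most abundant, NRT1/PTR 2.11 (TR86982|c9_g1), had 1979.5 and 2438. In gibberellin, a growth hormone, the synthesis enzyme 20-oxidase 1 (TR47285|c1_g2) had 10.1 against 118. Of 6 hits to the inactivating 2-oxidases 4 were lower and 1 higher, and the most abundant (TR33497|c0_g1) had 0.894, 475, 253 and 147. The highest abundant 2-oxidase (TR47096|c0_g1) had 21.9 at 48 h against 0.413 at 12 h. The DELLA growth repressors had 3 higher and 0 lower of 8.

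Some groups outside translation, chosen after values were seen, held more lower than higher genes at 48 h. Over all compared genes 15.5% were lower. Tubulins, which build microtubules, had 12 lower and 1 higher of 27, or 44.4% lower, and 7 lower after either rescaling of the columns. Histones had 16 lower and 0 higher of 53, or 30.2% lower, and 11 lower after either rescaling. The lowest abundant histone was an H3.2 hit (TR17981|c1_g3), at 5.04 at 48 h against 40.8 at 12 h. Folding helpers of the endoplasmic reticulum had 7 lower and 1 higher of 28, or 25% lower, with a median of -0.80. After either rescaling 5 of them were lower and 2 higher. Within the wider list of 225 chaperones, 35 were higher and 26 lower. Its highest and lowest abundant members were a plastid chaperonin 60 beta 1 (TR17137|c1_g2), of the complex that folds Rubisco, at 62.04 against 0.214, and a DnaJ hit (TR17449|c0_g1) at 1.40 against 123. The most abundant, heat shock cognate 80 (TR24488|c6_g1), was level, at 611 and 545.

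Some assembled genes with very high deposited values had no Swiss-Prot or TrEMBL hit. The highest by mean, TR44405|c11_g2, stood at 17306, 95796, 77773 and 53574 at 0, 12, 24 and 48 h. TR34236|c2_g2 (chosen afterwards) stood at 16.96, 7234, 22771 and 52772, with a log2 difference, 48 h minus 12 h, of 2.87. TR65391|c4_g1 (chosen afterwards) had 2804 at 48 h against 33979 at 12 h.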
